A study of Mus musculus with 2 samples.

Results

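The regions described here are 10 stretches of the mouse genome, 990 kb in all on 7 chromosomes of the build mm9, in which messenger RNA signal was higher in 2C::tomato+ than in 2C::tomato- embryonic stem (ES) cells. They were chosen from these same libraries, out of 817 windows of 10 kb with a positive to negative ratio of 4 or more, and were grouped by an earlier search that had listed them as free of repeated stretches. The label goes against the data for 8 of the 10 regions, as described below, so they are called here by their coordinates. Because the positive to negative ratio chose the regions, every ratio of a whole region is a description with no test. All covered intervals of either track within the coordinates were kept, 1145 in number.

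The study used flow cytometry to collect ES cells with and without the reporter's fluorescence, and sequenced the mRNA of each population in 1 library. Both populations had the Kdm1a FL/FL, CreERT background, with floxed alleles of the gene of the histone demethylase LSD1. They were of mixed strain and were grown on gelatin under hygromycin, and the labels name no treatment that would delete the floxed alleles. The positive library held 37059813 alignments at 8326713 start positions over 87.7 Mb, and the negative library 33833215 alignments at 7193195 start positions over 72.6 Mb.

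In the 2C::tomato reporter a fluorescent protein reads out the promoter of MuERV-L, an endogenous retrovirus active in the embryo at its 2-cell stage. Some ES cells in culture pass through a state that expresses this retrovirus and other transcripts of that stage. Many mouse genes of early embryos lie in clusters of near-identical copies, and a short read from such a copy can match several places. The reporter defines the sorted populations, so a difference between them describes cells picked by MuERV-L promoter activity. In such bulk RNA, more cells of a kind and more RNA per cell cannot be told apart. Genes were not assigned and no sequence is printed, since the annotation and genome at hand are of the build GRCm38. Markers of ES cells were not analysed here for the same reason.

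Of the 99 windows of 10 kb in the 10 regions, 57 had a ratio of at least 4 and a 95% interval above 1, all of them among the 62 windows with at least 20 alignments. The background over the genome was 1.69% of the 48349 windows with at least 20 alignments, and nothing is read from the difference, since the regions were chosen by this rule. Together the regions held 6873 positive and 833 negative alignments, 0.0185% and 0.00246% of the libraries, a ratio of shares of 7.53 (7.01 to 8.10). Ratios are of shares of all alignments of each library, and brackets give exact conditional binomial (Clopper-Pearson) 95% intervals, which cover at most counting error. Where start patterns recur, as described below, alignments are not independent, so intervals that use every alignment are too narrow. An alignment is 1 listed place of a read and not a molecule. With 1 library per population there is no replicate check.

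Levels spanned from 7.29 to 45.3 alignments per 1000000 in the positive library and from 0 to 9.37 in the negative library. The region chr5:14910001-15220000 had 1680 positive and 98 negative alignments. In chr1:34140001-34250000, called here the first on chromosome 1, there were 1177 and 210. The later one, chr1:153020001-153060000, had 488 and 25. Both regions on chromosome 13 kept a clear negative signal, with 486 and 85 alignments in chr13:68030001-68090000 and 1020 and 317 in chr13:68260001-68500000. At the other end were chr14:106840001-106890000, with 656 positive and 2 negative alignments, and the pair on chromosome 4, which had no negative alignment. That pair had 439 positive alignments in chr4:73270001-73340000 and 286 in chr4:73510001-73570000. The remaining 2 regions were small, chr10:57680001-57710000 with 371 and 40 alignments and chr3:137280001-137300000 with 270 and 56.

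**Figure D1:**
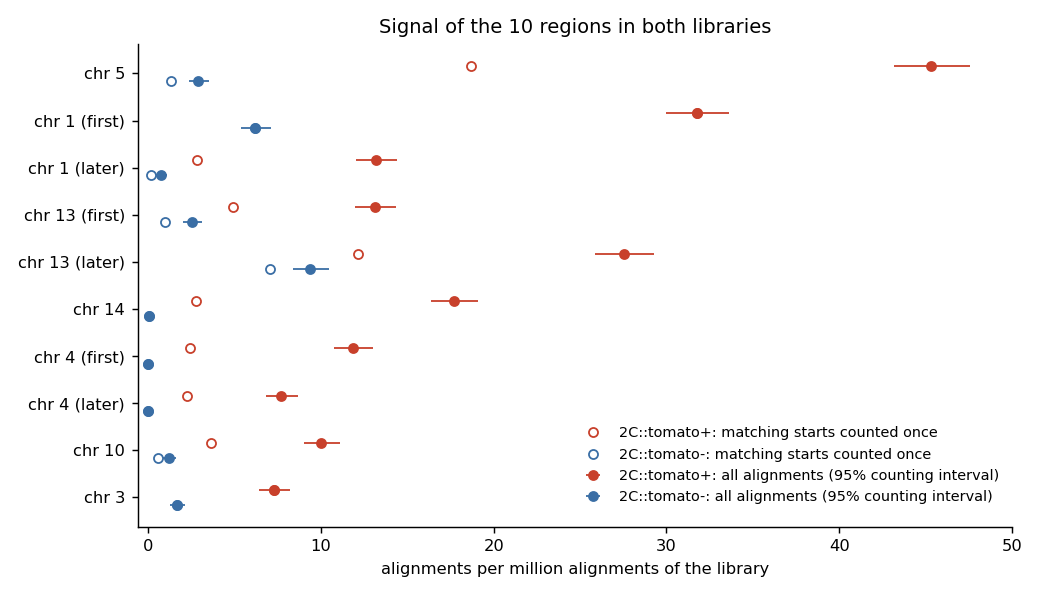
Signal of the 10 regions, in alignments per 1000000 alignments of the library (linear axis), for 2C::tomato+ (red) and 2C::tomato- (blue). Filled points count every alignment with its 95% counting interval, and open points count matching starts 1 time within a region. Filled red points run from 7.29 (chromosome 3) to 45.3 (chromosome 5), and the open ones lie below them in 8 regions.

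Recurring patterns were looked for in the positions where alignments start. A run was 8 consecutive start positions spanning at least 20 bases, and it counted as recurring where the gaps between starts and the counts of both libraries were identical at another place of the genome, in either orientation. Equal starts within 200 bases of such a run were added. In 8 regions most alignments lay in recurring patterns. Their share was 75.1% on chromosome 5, 99.2% in the later region on chromosome 1, 94.0% and 75.5% on chromosome 13, 96.8% on chromosome 14, 100% and 99.3% on chromosome 4, and 93.4% on chromosome 10. It was 2.81% in the first region on chromosome 1 and 0% on chromosome 3. The earlier search needed at least 8 start positions and 20 starts within 64 bases, a density that no stretch reached in 8 of the regions. One of the other 2, the later region on chromosome 13, held 60 such stretches and still had 75.5% of its alignments in recurring patterns by the present search.

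The pattern was also common elsewhere among windows that were higher in the positive library. At a minimum of 50 alignments, 35 of 43 windows of the 10 regions (81.4%) had at least 50% of their alignments in recurring runs. For the other windows at least 4-fold higher it was 210 of 333 (63.1%), and for the remaining windows 1736 of 37003 (4.69%). Among remaining windows with 50 to under 200 alignments it was 1012 of 14157 (7.15%). The windows of the 10 regions and the other higher windows were not cut at 200, so depth was not matched. These counts use runs without the added starts and carry no test.

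**Figure D2:**
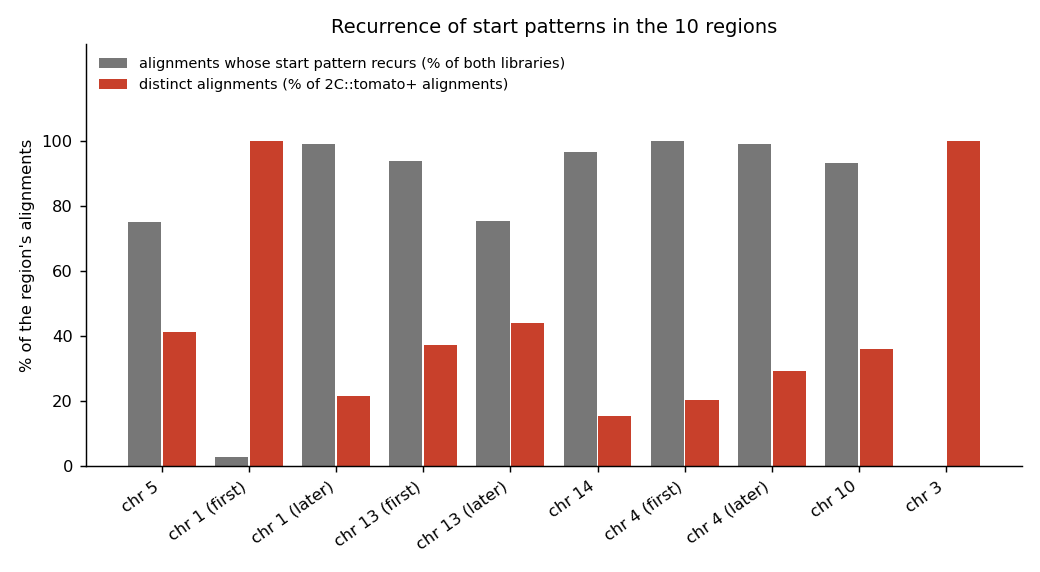
For each of the 10 regions, grey bars give the share of the alignments of both libraries whose start pattern recurs, and red bars the positive alignments left when matching starts are counted 1 time, as a percent of those listed. Grey bars are at 75.1% or above in 8 regions, at 2.81% in the first region on chromosome 1 and at 0% on chromosome 3.

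When starts that matched within a region or between the 10 regions were counted 1 time over the set, the regions held 3078 positive and 592 negative alignments, 44.8% of the positive alignments listed. The ratio was then 4.75 (4.35 to 5.19). In the 8 recurring regions the positive count fell to 30.1% of the listed one, and their ratio was 8.74 with every alignment and 4.57 (4.05 to 5.16) by that count. Values of single regions below count matches within the region only. The 2 regions with few or no recurring patterns together had 1447 positive and 266 negative alignments, a ratio of 4.97 (4.35 to 5.68). A negative read listed at several places is thinned by the same step.

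Block shape was described by a rule. Covered stretches of the summed depth were joined over gaps of up to 50 bases, and blocks with at least 10 alignments were called dense. A region was exon-like with at least 3 dense blocks of a median length under 500 bases that held at least 50% of its alignments, and continuous if a single block of at least 2000 bases held at least 50%. By this rule 6 regions were exon-like, 0 were continuous and 4 were neither. The rule counted the blocks of every copy of a repeated unit, so a call can rest on repetition. In the first region on chromosome 13 and the later one on chromosome 4, a single unit had fewer dense blocks than the minimum of 3. There were 137 dense blocks of 87 to 3963 bases, with a median of 363. The longest reached the border of its region, so its length may be cut. Of the 137 dense blocks, 55 had no negative alignment and 10 were below 2-fold. Of these 55 blocks, 16 were on chromosome 5, 11 on chromosome 14, and 15 and 8 in the chromosome 4 pair. Many of them match each other and are not separate measurements. The share over all dense blocks of the genome was not computed and the regions were chosen by ratio, so nothing is read from these counts. At least 50% of the alignments were recurring in 116 of the 137 dense blocks, and 109 fell into 15 families of blocks that matched each other. The words exon-like and continuous name shapes only: strand was not kept, and the alignments are ungapped, so no read joins a pair of blocks.

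**Figure D3:**
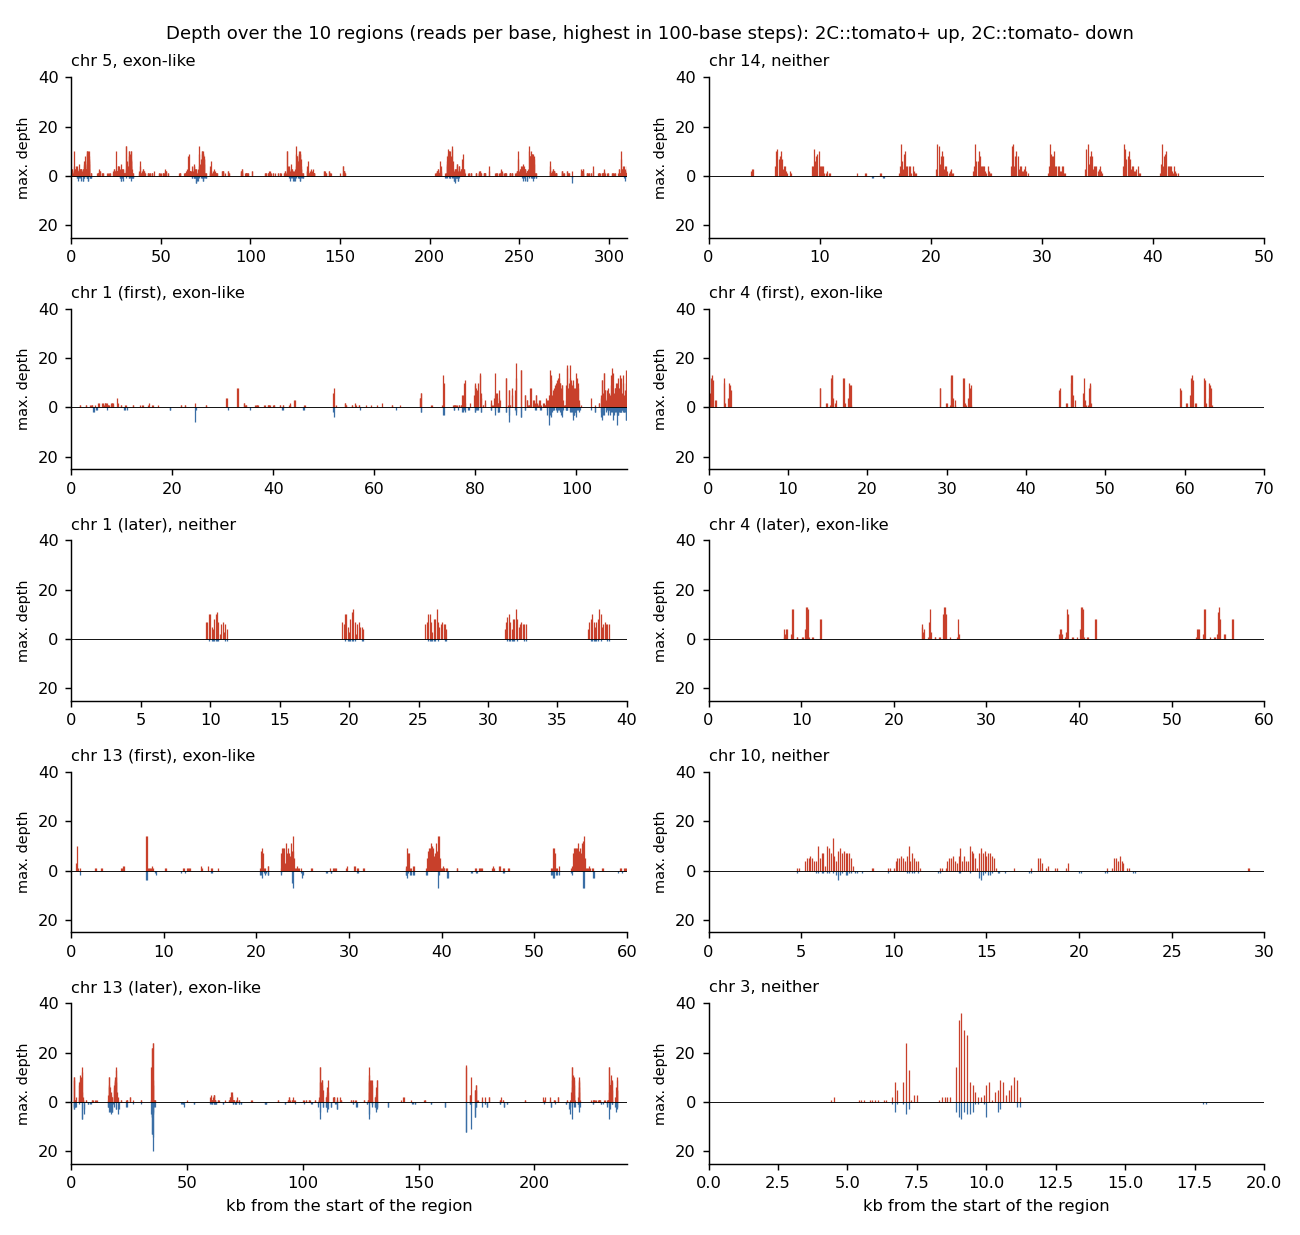
Depth of both libraries along each of the 10 regions, as the highest number of reads per base in each 100-base step against the distance from the region's start in kb, with 2C::tomato+ (red) upward and 2C::tomato- (blue) downward. Groups of peaks return at intervals in several panels, among them those of chromosomes 14, 4 and 13, and the tallest peak is on chromosome 3, at 36 reads.

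The region on chromosome 5 was exon-like and the longest, with 35 dense blocks of median length 370 bases among 361 blocks. Dense blocks held 53.4% of its alignments, and the call became neither both with no gap joined, at 43.9%, and with gaps of up to 200 bases joined. Its windows fell into 6 with 168 to 206 positive alignments against 7 to 16 negative ones, others with at most 69 positive alignments, and 4 neighbouring windows with 0 in both libraries. The 6 high windows each held a block of 238 bases with 14 or 15 positive alignments and 1 negative, next to a longer block. That longer block measured 1330 to 1335 bases in 5 of its copies, with 79 to 89 positive and 1 to 3 negative alignments, and in the other copy it was split into 896 bases (64 and 3) and 370 bases (21 and 0). Across these copies the longer block was high in the positive and low in the negative library throughout. Most of its alignments lay in recurring patterns, so the copies are not independent measurements.

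A further family on chromosome 5 had 7 blocks of 129 to 223 bases, with 10 or 11 positive and 0 negative alignments each. The most frequent distances between matching starts were 129889 bases (115 starts), 54101 bases (99) and 23569 bases (90). The copy at 15115815-15128375 lay in the opposite orientation to the others. A start pattern here had up to 8 places, and 10.2% of alignments matched a place outside the region. Counted 1 time, the matching starts gave 692 positive and 44 negative alignments, a ratio of 14.4 (10.6 to 19.9) against 15.7 (12.8 to 19.4) with every alignment. The ratio was therefore nearly the same by both counts. In all, 88.6% of the positive alignments lay in 14 of the 31 windows.

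The later region on chromosome 1 consisted of 6 dense blocks and nothing else, and its shape was neither. Blocks beginning at 153045552, 153051267 and 153057274 were each 1490 bases long, with 101, 100 and 99 positive alignments and 5 negative ones in each. The block at 153039522-153041014 had 96 and 5, and a further copy was split into 1020 bases (71 and 4) and 419 bases (21 and 1). All copies lay in the same orientation. The last 3 began 5715 and 6007 bases apart, and the steps before them were 9808 and 6030 bases. Counting matching starts 1 time left 105 positive and 5 negative alignments, a ratio of 19.2 (7.96 to 60.3) against 17.8 (11.9 to 27.8). A further matching place lay in the opposite orientation at chr7:130701943-130703157, with 61 positive and 4 negative alignments in a window that was also at least 4-fold higher.

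The first region on chromosome 13 repeated a unit 3 times at a spacing of 15732 bases. Each unit had a block of 237 bases with 16 positive and 3 negative alignments, and a block of 1510 bases with 113 and 9. The 1510-base block was 11.5-fold higher at each of its places, which began at 68052617, 68068349 and 68084081. Over the whole stretch that matched the later region, each unit had 134 positive and 18 negative alignments and was 6.80-fold higher. As the 3 units had equal start patterns, they are not independent measurements. The region was exon-like, with 8 dense blocks of median length 237 bases, and its ratio was 5.22 (4.14 to 6.65) with every alignment and 4.89 (3.37 to 7.27) with matching starts counted 1 time. Its alignments outside recurring patterns, 25 positive and 9 negative, had a ratio of 2.54.

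The later region on chromosome 13 shared its leading blocks with the first, in 2 families that covered both regions. Matching units lay at 6 places, with 108 to 130 positive and 17 to 21 negative alignments each, ratios of 5.25 to 6.66. At 68261080-68264958 the counts were 124 and 17, in the orientation of the first region, and at 68388301-68392178 they were 130 and 21, in the opposite one. The 6 longest blocks of these units, of 967 to 1432 bases, were 8.83 to 28.3-fold higher. The lowest of these ratios was at 68367320 (87 and 9) and the highest at 68492717 (62 and 2). Between them were the blocks at 68278292 (90 and 5), 68388469 (79 and 7), 68263824 (77 and 7) and 68476032 (69 and 7). The next block by alignments, at 68492251 (35 and 7), was 4.56-fold higher. That block and the one at 68492717 were pieces of the same copy, so neither 28.3 nor 4.56 is the ratio of a whole copy. The blocks at 68263824, 68388469 and 68476032 were also pieces, beside blocks with 23 and 1, 29 and 3, and 23 and 3 alignments. Those at 68278292 (16.4-fold) and 68367320 (8.83-fold) were not split. The region was exon-like, a call that ended for both regions on chromosome 13 when gaps of up to 200 bases were joined.

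Other blocks of that region were close to equal in both libraries. Adjacent blocks of 493 and 352 bases, beginning at 68294650 and 68295257, had 50 against 37 and 52 against 38 alignments, ratios of 1.23 and 1.25. A 105-base block occurred 4 times, with 6 and 4 alignments each, a ratio of 1.37. At 68430628 there were 15 and 12 alignments, at 68432800 there were 10 and 11, and at 68434533 there were 5 and 6. These 9 blocks were the ones below 2-fold, among 26 dense blocks.

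The ratio of the later region on chromosome 13 thus depended on what was counted. It was 2.94 (2.59 to 3.34) over all 24 windows, and 5.15 (4.28 to 6.24) over the 7 windows that passed the 4-fold rule, which held 74.1% of its positive alignments. Those 7 windows were picked by the same counts, so a pooled ratio of at least 4 was fixed in advance and its interval tests nothing. The region's ratio was 1.72 (1.47 to 2.02) with matching starts counted 1 time and 1.15 (0.916 to 1.44) without recurring patterns, from 182 positive and 145 negative alignments. Start patterns had up to 19 places, the most of the 10 regions. Outside the region they matched chr15:21888188-21889555, with 107 positive and 7 negative alignments, and chr13:68607675-68608621, with 150 and 111. Hence patterns that were far higher in the positive library and patterns near equality both recurred beyond the region.

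The region on chromosome 14 showed the sharpest contrast with a measurable negative count, 656 against 2, a ratio of 299 (82.6 to 2478). It held 10 copies of a block, most often 3362 or 3366 bases apart and in the same orientation. Of these, 9 were 1123 to 1126 bases long with 58 to 62 positive alignments, and the other was split into 341 bases (21) and 733 bases (32). None of its 11 dense blocks, of median length 1126 bases, had a negative alignment. Its shape was neither, also with the other gaps and minimum and with the positive library alone. The starts counted 1 time came to 102 positive and 2 negative, a ratio of 46.6 (12.6 to 390). Without recurring patterns 19 positive and 2 negative alignments were left, a ratio of 8.67 (2.09 to 76.8). The same pattern lay at chr14:106491929-106493134 in the opposite orientation (45 and 0) and at chr14:111369824-111370817 (54 and 0).

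Both regions on chromosome 4 carried copies of the same unit, in opposite orientations. The first had 5 units, each with blocks of 332 bases (36 positive alignments at 31 start positions), 261 bases (16) and 363 bases (25), spaced 15102 to 15162 bases apart. The later region had 4 units with the 261-base and 332-base blocks, in the last of which the second block was 300 bases with 31 alignments. In the later region the stretch that takes the place of the 363-base block held too few alignments to be dense. All 23 dense blocks had 0 negative alignments.

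**Figure D4:**
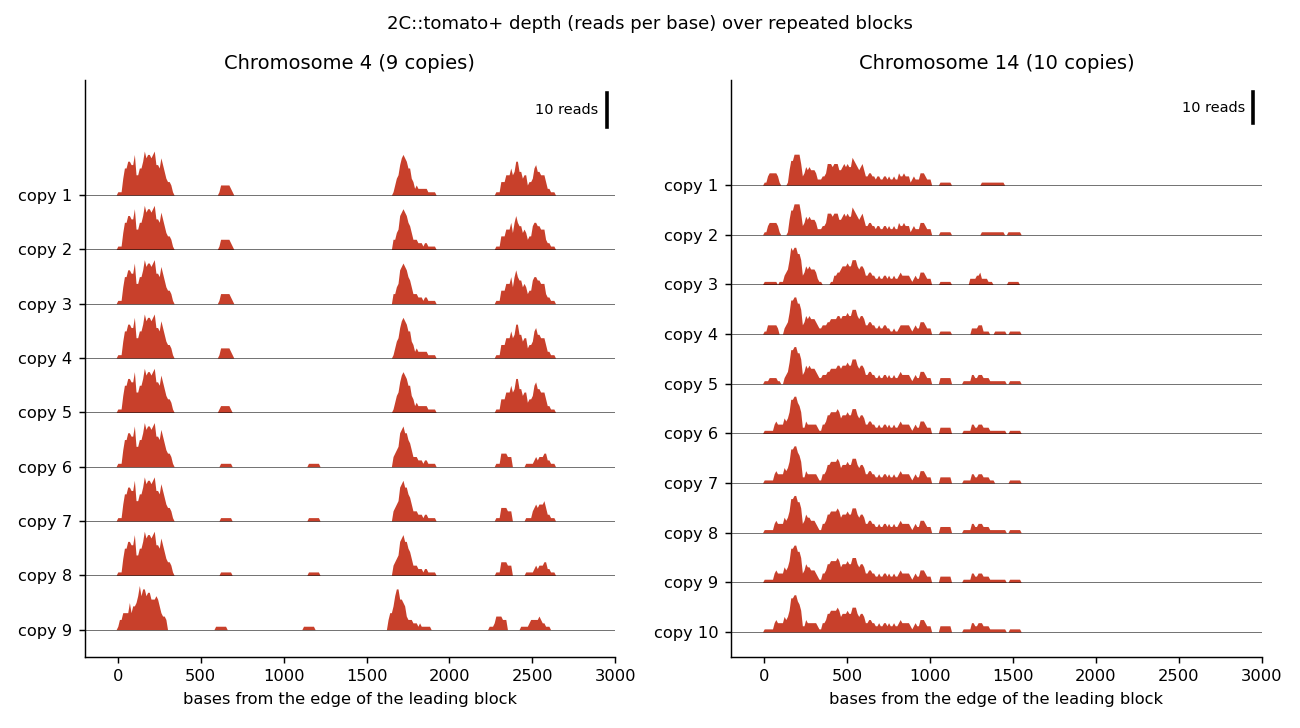
Depth of the 2C::tomato+ library, in reads per base (scale bar of 10 reads), over the copies of the chromosome 4 unit (9, both regions, turned to 1 orientation) and of the chromosome 14 block (10), against the distance in bases from the edge of the leading block. The peaks are alike from copy to copy, and the last peak on chromosome 4 is lower in copies 6 to 9, those of the later region.

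With no negative alignment in the chromosome 4 pair, a ratio can be given only against a floor of 3 counts over the region. On that scale the first region was 134-fold higher and the later one 87.0-fold higher. The lower limits of the exact intervals were smaller, 108-fold and 70.3-fold. For the negative library, the floor of 3 counts in 33833215 alignments is a level of 0.0887 alignments per 1000000. However, a start pattern of this unit had up to 10 places, so the floor is set in alignments that are not independent. Starts counted 1 time over the pair came to 111 positive and 0 negative, and they were 15.3% of the 725 listed. Against the same floor they were 33.8-fold higher, and the lower limit of the exact interval was 27.0-fold. A further copy was found at chr4:73062897-73064759, with 53 and 0 alignments.

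The region on chromosome 10 had 7 dense blocks of median length 968 bases and was neither exon-like nor continuous. With no gap joined it was exon-like. Its longest block, 57685210-57687822, had 142 positive and 14 negative alignments and held 38% of the region's alignments. The block at 57690096-57691406 had 57 and 3, that at 57693398-57694448 had 50 and 2, and that at 57694534-57695501 had 56 and 10. All of its recurring patterns matched inside the region, most often 7679 bases (119 starts) or 549 bases (42 starts) apart, and none outside it. The ratio was 8.47 (6.10 to 12), then 6.12 (3.81 to 10.3) with matching starts counted 1 time, and 4.02 (1.48 to 13.6) in the 22 positive and 5 negative alignments outside recurring patterns.

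Few or no start patterns recurred in the region on chromosome 3 and in the first region on chromosome 1. On chromosome 3 none did. Its 4 dense blocks were neighbours, of 270 bases (11 and 5), 292 bases (31 and 6), 1342 bases (162 and 37) and 902 bases (51 and 7), in order along the chromosome. Its shape was neither, but exon-like with no gap joined and continuous with gaps of up to 200 bases joined. The ratios were 2.01, 4.72, 4.0 and 6.65, so the block with fewest alignments was nearest to equality. The 1342-base block held 61.0% of the alignments and reached a depth of 36 reads in the positive and 7 in the negative library. The whole region had a ratio of 4.4 (3.29 to 5.98), and the 100 kb on either side held 3 alignments in all.

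The first region on chromosome 1 was exon-like by the rule, with 17 dense blocks of median length 193 bases, but 2 kinds of block met in it. Up to 34232385 there were 13 blocks of 126 to 471 bases. One of these was 34219847-34220317 (37 and 3) and another 34227964-34228156 (24 and 3). Past it came 4 long blocks, of 3405 bases (230 and 35), 2834 bases (215 and 25), 1204 bases (70 and 19) and 3963 bases (269 and 61). The last of these reached the region's border, past which starts were not counted, so its length may be cut. The long blocks were 6.0, 7.85, 3.36 and 4.03-fold higher. They held most of the region's 1177 positive and 210 negative alignments, while the short blocks set the median length. The call exon-like thus describes most of the blocks and not most of the signal. A single block was below 2-fold, 34226595-34226791, with 10 and 6 alignments. The recurring patterns were 32 starts in the blocks at 34219847 and 34220466, and they matched chr17:24830458-24831021, where 95 positive and 35 negative alignments gave a ratio of 2.48.

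This region had no sharp edge on its far side. Its last 2 windows had 446 and 59 alignments (6.90-fold) and 384 and 86 (4.08-fold). The window after them had 181 and 56, a ratio of 2.95 (2.18 to 4.06), and the 10 windows beyond the edge ran from 3.32-fold to 1.46-fold. Over that 100 kb the counts were 1770 and 763, a ratio of 2.12 (1.94 to 2.31), against 43 and 30, or 1.31 (0.802 to 2.16), in the 100 kb before the region. The lowest window that passed the 4-fold rule had 22 and 5 alignments, a ratio of 4.02, while a neighbouring window of 15 and 3 (4.56) was not compared, being under 20 alignments.

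**Figure D5:**
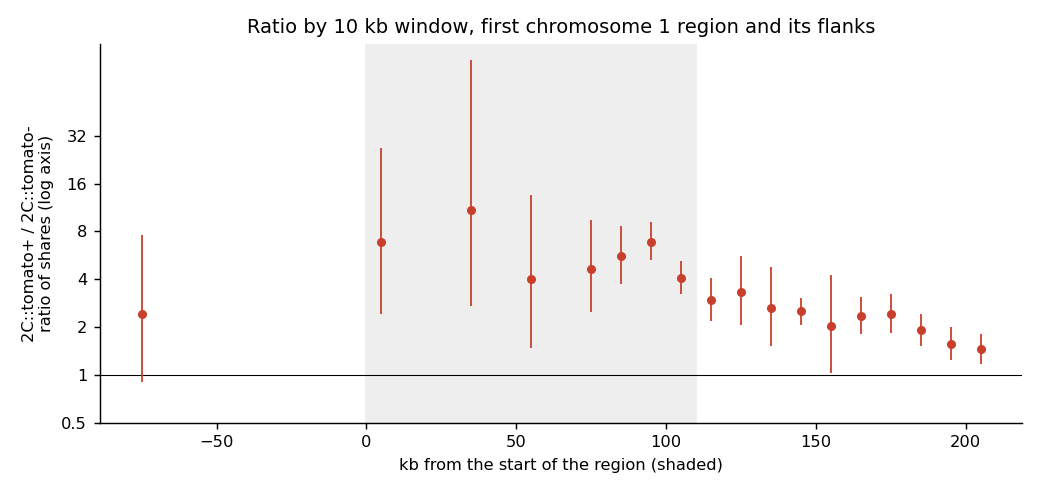
Positive to negative ratio in 10 kb windows along the first region on chromosome 1 and 100 kb on either side, with 95% counting intervals, against distance in kb (log ratio axis); windows under 20 alignments are not drawn. The ratio is 6.90 and 4.08 in the last 2 windows of the region and runs from 3.32 to 1.46 in the 10 windows after it.

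Edges differed among the other regions. In the 100 kb on each side of chromosome 14 there were 4 positive alignments, against 656 within the region. The 100 kb before the first region on chromosome 13 held 899 against 886 alignments, at a ratio of 0.926 (0.843 to 1.02). The other flanks on chromosome 13 were higher in the positive library, 1.62 (1.08 to 2.46) after the first region, and 2.71 (1.74 to 4.32) and 1.95 (1.35 to 2.87) before and after the later one. Each of these flanks held places that matched recurring patterns of the regions. Among them were 68101749-68102126 (17 and 7), 68225817-68226039 (14 and 3) and 68529904-68530189 (13 and 7), so the flanks are not independent of the regions. On chromosome 5 there were 22 against 1 alignments before the region and 26 against 8 after it. In the latter, a stretch with matching starts held 21 and 6. The 100 kb after the region on chromosome 10 held 661 against 556, at a ratio of 1.09 (0.968 to 1.22). Flanks thus ranged from nearly empty to well covered, and from near equality to clearly higher in the positive library.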

How the data were processed

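The authors deposited 1 coverage track per library, an unscaled signal that gives the number of reads over each base. Per the file headers each was made from a sorted BAM file, and the submitters' processing notes name Bowtie and mm9. For its version, settings and filters, and for the handling of reads with several matches, the sources used here give nothing.

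The signal was decoded into starts of ungapped alignments of 72 bases. No start count came out below 0 in either library, and the shortest covered block was 72 bases. Start patterns that occur at several places show that alignments are not all separate reads. Regions were counted by start, as shares of 37059813 (positive) and 33833215 (negative) alignments. Without molecular identifiers the reads may not be separate molecules, so intervals and floors cover at most the error of counting.

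All 10 regions are named. Within a region, blocks were named from the 12 with most alignments, plus every dense block below 2-fold, and other blocks appear as members of families described after their values were seen. The regions, shape rule and block rule were chosen with earlier results of these data known, and the search for recurring runs, the block families and the flanks of 100 kb were added after the data were seen. Other alternatives were another count of starts, another scaling, other gaps between blocks, other minimums and other window sizes. Decoding, counting and the search were tested on simulated data. Software was Python 3.11.15, numpy 2.4.6, scipy 1.17.1, pandas 2.3.3, numba 0.67.0 and matplotlib 3.10.9.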

Additional observations from a re-analysis of the deposited data

How the results depend on the processing

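No paired analysis was possible because there was 1 library of each kind, and no replicate could be left out. With each start position counted 1 time, the ratios to the floor on chromosome 4 were 117 and 75.7, against 134 and 87.0. With matching starts counted 1 time, the ratio was 46.6 on chromosome 14 and 1.72 in the later region on chromosome 13. By that count the ratio to the floor was 27.4 and 25.6 on chromosome 4, with lower limits of 21.8 and 20.3. With recurring patterns left out it was 8.67 on chromosome 14, 2.54 and 1.15 on chromosome 13 (the latter with an interval of 0.916 to 1.44, which includes 1) and 4.02 on chromosome 10, and in the later region on chromosome 1 and on chromosome 4 under 20 alignments remained. The windows at least 4-fold higher gave 5.15 in the later region on chromosome 13, where a value of at least 4 was fixed by their choice. Joining gaps of up to 200 bases left 3 regions exon-like, ended that call on chromosome 5 and in both regions on chromosome 13, and made 1 continuous, on chromosome 3, while with no gap joined the regions on chromosomes 10 and 3 became exon-like and that on chromosome 5 neither. Over the genome, 374 windows were at least 4-fold higher at a minimum of 50 alignments and 447 with windows of 50 kb, against 817. Median-ratio scaling moved no ratio beyond its interval. Regions with few negative alignments are limited by depth.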
